A study of Mus musculus with 30 samples.

Results

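Interferon-stimulated genes are the genes that cells switch on after an interferon binds its receptor, and 54 of them were followed here in macrophages taken from mouse tumours. The members were the genes of the deposited count table whose symbol stood on a list of 54 names, and all 54 were found among the 46603 genes of that table. They were split into 11 genes typical of type I interferon (the Ifit, Oas and Mx families), 10 interferon gamma GTPases (the Gbp and Irg families) and 33 other members. Macrophages were tumour-associated macrophages (TAMs) of WT C57BL/6 mice bearing subcutaneous 3LL-R tumours, a mouse lung carcinoma line, and were sorted by surface MHC class II into MHC-IIlo and MHC-IIhi cells. There were 6 groups of 5 libraries, which were MHC-IIlo and MHC-IIhi TAMs cultured for 24 h with 20 mM sodium L-lactate, both subsets cultured for 24 h without lactate (no-lactate), and both subsets taken directly after sorting (fresh). Fresh libraries came from 30000 cells and cultured ones from 250000 cells, so culture, cell number and the way of lysis cannot be told apart. The labels call the 5 libraries of a group biological replicates and do not say whether each came from its own mouse, so p-values measure the spread between these libraries. Libraries carry the numbers of the labels (fresh) or of the deposited column headings (cultured), and values are listed in that order.

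Type I interferons (interferon alpha and beta) act through the receptor chains Ifnar1 and Ifnar2 and a complex with STAT2 and IRF9, which binds a DNA element called the interferon-stimulated response element (ISRE). Interferon gamma acts through Ifngr1 and Ifngr2 and on genes with a gamma-activated site (GAS), and it also induces IRF1, which binds ISRE-like elements. Macrophages answer both, and many of the members respond to either, so the family split is one of name and not of stimulus.

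To show what the members share in sequence, promoters were read from RefSeq (build GRCm38.p6) from 250 bases before to 50 bases after each annotated start. A promoter was held for 43 of the 54 members, with 51 starts in all, and 11 members (Oas2, Mx1, Mx2, Iigp1, Dhx58, Zbp1, Usp18, Parp9, Parp14, Rtp4 and Gm4955) had none in the table. The 5 promoters that follow stand for an ISRE array (Isg15), a pair of ISRE letters on the opposite strand (Ifit1), the member with the largest culture effect in MHC-IIhi TAMs (Rsad2), a Gbp gene with both kinds of letters (Gbp5) and a GAS without an ISRE (Irf1). Each is printed 5′ to 3′ on the strand of its gene. Capitals mark matches of the ISRE letters (GAAA, any 2 bases, then GAAA) or of the GAS letters TTCNNNGAA. Both were searched on both strands, so that an ISRE on the other strand reads TTTC, any 2 bases, then TTTC, and a GAS reads the same on both. The regions are chr4:156200769-156201068 on the minus strand for Isg15, chr19:34640639-34640938 on the plus strand for Ifit1, chr12:26456403-26456702 on the minus strand for Rsad2, chr3:142496684-142496983 on the plus strand for Gbp5 and chr11:53769764-53770063 on the plus strand for Irf1.
Isg15: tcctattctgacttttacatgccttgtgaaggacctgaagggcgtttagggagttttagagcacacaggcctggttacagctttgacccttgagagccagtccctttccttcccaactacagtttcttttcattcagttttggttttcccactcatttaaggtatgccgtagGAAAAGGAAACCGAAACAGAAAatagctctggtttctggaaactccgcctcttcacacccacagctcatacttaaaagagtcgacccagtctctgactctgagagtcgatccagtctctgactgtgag
Ifit1: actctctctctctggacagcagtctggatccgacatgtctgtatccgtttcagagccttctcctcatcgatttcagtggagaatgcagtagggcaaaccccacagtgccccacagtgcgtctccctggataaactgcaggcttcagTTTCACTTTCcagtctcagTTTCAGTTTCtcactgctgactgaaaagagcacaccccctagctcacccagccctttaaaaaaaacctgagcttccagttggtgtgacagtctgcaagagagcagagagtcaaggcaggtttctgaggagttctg
Rsad2: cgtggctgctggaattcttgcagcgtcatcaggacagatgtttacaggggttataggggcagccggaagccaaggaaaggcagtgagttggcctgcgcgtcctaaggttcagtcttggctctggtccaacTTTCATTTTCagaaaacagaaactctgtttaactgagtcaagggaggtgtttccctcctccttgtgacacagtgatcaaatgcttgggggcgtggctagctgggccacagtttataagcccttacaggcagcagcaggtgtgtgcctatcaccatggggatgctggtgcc
Gbp5: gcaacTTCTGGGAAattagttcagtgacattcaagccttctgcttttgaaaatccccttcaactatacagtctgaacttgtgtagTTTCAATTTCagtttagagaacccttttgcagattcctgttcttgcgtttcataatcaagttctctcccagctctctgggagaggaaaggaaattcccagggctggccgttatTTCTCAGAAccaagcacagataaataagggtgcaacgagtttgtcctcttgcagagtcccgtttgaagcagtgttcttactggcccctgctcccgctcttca
Irf1: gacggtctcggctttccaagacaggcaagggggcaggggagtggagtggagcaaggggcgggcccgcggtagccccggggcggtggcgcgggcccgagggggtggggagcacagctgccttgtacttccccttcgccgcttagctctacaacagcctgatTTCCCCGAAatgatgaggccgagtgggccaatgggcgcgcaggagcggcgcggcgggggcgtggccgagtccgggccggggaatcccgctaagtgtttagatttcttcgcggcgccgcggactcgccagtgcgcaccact
Counting from the annotated start as 0, Isg15 held overlapping ISRE matches at -78, -72 and -66, and Ifit1 held matches at -104 and -85. In Rsad2 the match stood at -120. In Gbp5 the ISRE match stood at -165 and GAS matches at -245 and -52, and in Irf1 the GAS match stood at -90.

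ISRE letters were found in 23 of the 43 member genes and in 47.1% of their 51 promoters, against 3.44% of all 32851 promoters of the same length. They stood in 5 of 8 Ifit, Oas and Mx genes with a promoter, in 8 of 9 Gbp and Irg genes and in 10 of 26 others. The longer ISRE form, with CT straight after the second GAAA, stood in 27.5% of member promoters, against 0.271% of all. GAS letters stood in 14 genes and 27.5% of member promoters, against 8.3% of all, and the stricter TTCCNGGAA in 9.8%, against 1.15%. No ISRE letters stood in the windows of Irf7, Ifit2, Cmpk2, Oasl1, Oasl2, Herc6 and Xaf1, which says only that these letters are absent there. A GAS followed by an ISRE within 25 bases was found in 9 of the 32851 promoters (0.0274%), and 4 of the genes holding it were members. In 3 of these, Irg genes of chromosome 11, the ISRE began 11 bases after the first base of the GAS, as the following stretches show with GAS and ISRE letters in capitals. Bst2 holds a second ISRE match at -130 that overlaps its GAS, so its whole stretch is in capitals.
Tgtp1: TTCCAGGAAtcGAAACTGAAA
Igtp: TTCTAGGAActGAAACTGAAA
Irgm2: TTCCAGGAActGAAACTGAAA
Bst2: TTCCAGGAAAATGAAACTGAAA
The GAS began at -88 in Tgtp1, -45 in Igtp, -75 in Irgm2 and -136 in Bst2. A match of letters is a description and was not tested for binding.

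Several families sit side by side in the genome, by the GRCm38 coordinates of the count table. Ifit2, Ifit3 and Ifit1 lie on chromosome 19 between 34550694 and 34650009, Gbp5, Gbp7, Gbp3 and Gbp2 on chromosome 3 between 142493978 and 142638008, and Oas2, Oas3, Oas1g and Oas1a on chromosome 5 between 120730333 and 120907521. Rsad2 (26442753 to 26456452) and Cmpk2 (26469204 to 26479835) are neighbours on chromosome 12. Igtp (58199556 to 58207591) and Irgm2 (58199618 to 58222779) overlap on the plus strand of chromosome 11, and Dtx3l and Parp9 overlap at their ends on opposite strands of chromosome 16. Counts of overlapping genes, and of genes with a near-identical copy (Tgtp1, Ifit3, Oas1a, Oas1g, Trim30a and Phf11d), are uncertain, since the strand setting and the treatment of shared reads are not given in the sources used here.

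Cultured libraries held 16965012 to 31481548 counts and fresh libraries 16913250 to 21407666. All 8 macrophage markers were detected in each group, with summed levels of 3582 to 12266 CPM (counts scaled to equal library totals). Markers of dendritic cells summed to 5.76 to 10.8 CPM in lactate MHC-IIlo, 113.8 to 296 CPM in lactate MHC-IIhi, 8.69 to 17.3 CPM in no-lactate MHC-IIlo, 128 to 328 CPM in no-lactate MHC-IIhi, 67.5 to 107.7 CPM in fresh MHC-IIlo and 599 to 784 CPM in fresh MHC-IIhi libraries. Xcr1, one of the 8 dendritic cell markers, was at 0 in all fresh MHC-IIlo libraries. The 8 markers listed for plasmacytoid dendritic cells summed to 105 to 154 CPM in lactate MHC-IIlo, 214 to 401 CPM in lactate MHC-IIhi, 129 to 154 CPM in no-lactate MHC-IIlo, 233 to 331 CPM in no-lactate MHC-IIhi, 219 to 267 CPM in fresh MHC-IIlo and 167 to 227 CPM in fresh MHC-IIhi libraries, with Siglech and Klk1 at 0 in every cultured library. T and NK cell markers summed to 0.526 to 16.9 CPM over all libraries. One library stood apart: lactate MHC-IIlo 5 held the highest value of its group for 60.1% of the 14015 genes with enough counts and the lowest for 16.1%. Among the members the picture was the reverse, with 42 of 54 lowest in that library. Counts of calls, medians and the log2 fold changes of genes named for lactate MHC-IIlo TAMs are given with and without it, an alternative chosen after seeing the data. The scaling factor (TMM) was 1.28 for lactate MHC-IIlo 5 and 0.919 to 1.01 for the others of its group. CPM leave this factor out, and so place genes of that library higher than TMM scaling does. Over all 30 libraries the factors ran from 0.901 to 1.28. Gaps and overlaps between libraries are given in CPM, and narrow gaps can close under TMM scaling.

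Taken as one sum, the members made up 2.48% ± 0.435 of all counts in lactate MHC-IIlo, 3.15% ± 0.511 in lactate MHC-IIhi, 3.08% ± 0.156 in no-lactate MHC-IIlo and 3.54% ± 0.706 in no-lactate MHC-IIhi libraries, against 0.360% ± 0.00857 in fresh MHC-IIlo and 0.370% ± 0.00767 in fresh MHC-IIhi libraries (SD, n = 5 each). Without lactate MHC-IIlo 5 the share in that group was 2.65% ± 0.274 (SD, n = 4). Each cultured library lay far above each fresh one. In these bulk libraries, more cells expressing a gene and more of its RNA per cell cannot be told apart. Per kilobase of gene length, Ifitm3 stood first and Bst2 second among the members in all 6 groups, and Tgtp1 last. Ifitm3 averaged 1626, 1755, 1723, 1780, 731 and 1110 CPM per kilobase (RPKM) in lactate MHC-IIlo, lactate MHC-IIhi, no-lactate MHC-IIlo, no-lactate MHC-IIhi, fresh MHC-IIlo and fresh MHC-IIhi TAMs, and Bst2 1315, 1033, 1362, 1160.2, 153 and 109.8 RPKM. The order of other members shifted with culture. Samhd1 ranked 28 in no-lactate MHC-IIlo and 26 in no-lactate MHC-IIhi TAMs, against 4 and 3 in the fresh subsets. Ifit3 ranked 6 in no-lactate MHC-IIlo and 7 in no-lactate MHC-IIhi TAMs, against 29 and 36 in the fresh subsets.

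**Figure D1:**
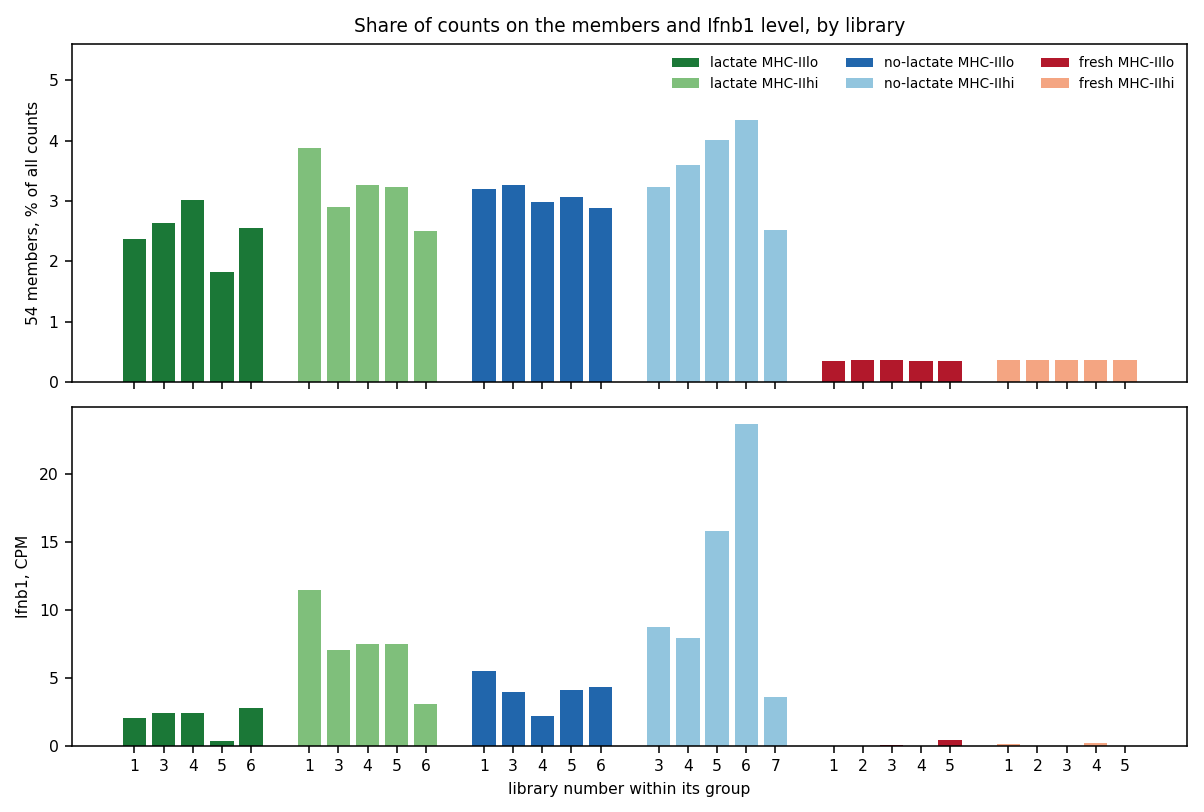
Share of all counts that fell on the 54 members (upper panel, percent) and level of Ifnb1 (lower panel, CPM) in each of the 30 libraries, 1 bar per library, numbered within its group and coloured by group. Members took 2.48% to 3.54% of counts in the cultured groups and 0.360% to 0.370% in the fresh groups, and Ifnb1 was near 0 in fresh libraries.

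Culture without lactate was compared with the fresh state in each subset, and every member was higher after culture. In MHC-IIlo TAMs 54 of 54 members rose at an adjusted p under 0.05 (edgeR quasi-likelihood test, Benjamini-Hochberg adjustment over all genes tested), where 57.4% of all 13682 genes changed and 27.6% rose. In MHC-IIhi TAMs 54 of 54 rose as well, where 61.9% of all genes changed and 31.5% rose. The median log2 fold change of the members was 3.25 (9.50-fold) in MHC-IIlo and 3.58 (11.96-fold) in MHC-IIhi TAMs, against -0.01 and 0.01 over all genes tested. The lowest no-lactate library lay above the highest fresh library for 54 members in MHC-IIlo TAMs (18.8% of all genes) and for 53 in MHC-IIhi TAMs (20% of all genes), Samhd1 being the exception. The 11 Ifit, Oas and Mx genes had a median rise of 14.3-fold in MHC-IIlo and 21.4-fold in MHC-IIhi TAMs, and the 10 Gbp and Irg genes 9.87-fold and 12.9-fold. Both counts of 54 held under every other way tried of scaling, filtering and testing and without any single library, with medians of 3.09 to 3.31 in MHC-IIlo and 3.42 to 3.68 in MHC-IIhi TAMs. Summed macrophage markers were 6180.2 to 7606 CPM in no-lactate MHC-IIlo and 11049 to 12266 CPM in fresh MHC-IIlo libraries, and 5056 to 7366 CPM in no-lactate MHC-IIhi and 7618 to 9138 CPM in fresh MHC-IIhi libraries. The 4 endothelial markers summed to 278 to 338 CPM in no-lactate MHC-IIlo and 88.6 to 111 CPM in fresh MHC-IIlo, and to 312 to 604 CPM in no-lactate MHC-IIhi and 98.1 to 121 CPM in fresh MHC-IIhi libraries. The 4 epithelial or tumour markers summed to 39.7 to 62.3 CPM in no-lactate MHC-IIlo and 132 to 303 CPM in fresh MHC-IIlo, and to 36.6 to 90.5 CPM in no-lactate MHC-IIhi and 486 to 619.7 CPM in fresh MHC-IIhi libraries, with Krt18 at 0 in both no-lactate groups. Dendritic cell markers were lower after culture in both subsets. The plasmacytoid dendritic cell list summed lower in MHC-IIlo and higher in MHC-IIhi TAMs, at the levels given above. Irf8, which is also on the signalling list below, made up most of that sum. It averaged 107 CPM in no-lactate and 167 CPM in fresh MHC-IIlo TAMs, and 234 and 161 CPM in MHC-IIhi TAMs. Siglech and Klk1 were at 0 in all no-lactate MHC-IIhi libraries and not in all fresh MHC-IIhi ones. Neutrophil markers summed to 776 to 1041 CPM in no-lactate MHC-IIlo and 1103 to 1881 CPM in fresh MHC-IIlo, and to 735 to 1056 CPM in no-lactate MHC-IIhi and 295 to 674 CPM in fresh MHC-IIhi libraries. B cell markers summed to 22.02 to 40.8 CPM in no-lactate MHC-IIlo and 3.35 to 13.1 CPM in fresh MHC-IIlo, and to 25.6 to 60.4 CPM in no-lactate MHC-IIhi and 13.5 to 32.8 CPM in fresh MHC-IIhi libraries. Mitochondrial genes held 0.209 to 0.338% of counts in no-lactate MHC-IIlo and 0.780 to 1.02% in fresh MHC-IIlo, and 0.444 to 0.562% in no-lactate MHC-IIhi and 0.833 to 1.31% in fresh MHC-IIhi libraries. The part of these markers and of the mitochondrial share in the culture comparison was not tested.

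**Figure D2:**
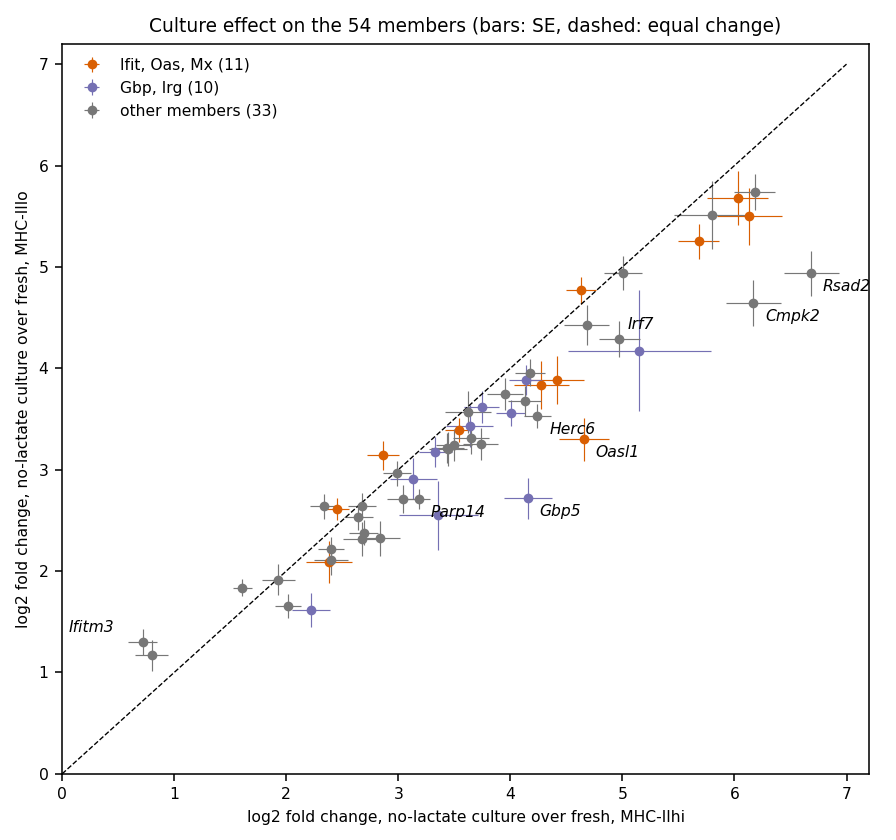
Log2 fold change of no-lactate culture over fresh in MHC-IIlo TAMs (vertical) against that in MHC-IIhi TAMs (horizontal) for the 54 members, 1 point each with SE bars, coloured by family, and the 8 members whose culture effect differed between the subsets named. All points lie above 0, and Rsad2, Cmpk2, Gbp5 and Oasl1 lie farthest below the dashed line of equal change.

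Ifit proteins bind viral RNA ends and block its translation. Ifit1 stood at 622, 847, 952, 547 and 768 CPM in lactate MHC-IIlo TAMs, 943, 1028, 994, 976 and 930.3 CPM in no-lactate MHC-IIlo TAMs and 23.2, 27.7, 26.2, 27.1 and 28.7 CPM in fresh MHC-IIlo TAMs. In MHC-IIhi TAMs it stood at 980.1, 719.9, 898, 769.997 and 618 CPM with lactate, 870.5, 1002, 1155, 1225 and 637 CPM without and 19.4, 16.4, 20.8, 21.5 and 19.6 CPM fresh. Cultured libraries were all far above fresh ones, the cultured subsets overlapped, and every fresh MHC-IIlo library exceeded every fresh MHC-IIhi library. Its culture effect was 5.25 ± 0.18 in MHC-IIlo and 5.68 ± 0.18 in MHC-IIhi TAMs on the log2 scale (SE, as for the other rises given with ±). Ifit2, which also promotes cell death when overexpressed, had 1073, 1372, 1453, 585 and 1680.3 CPM in lactate MHC-IIlo TAMs, 2041, 1841, 1952, 2204 and 2092 CPM in no-lactate MHC-IIlo TAMs and 34.5, 47.4, 49.9, 49.8 and 50.9 CPM in fresh MHC-IIlo TAMs. In MHC-IIhi TAMs Ifit2 had 2185, 1435, 1554, 1774 and 926 CPM with lactate, 1414, 2036, 2787, 3178 and 905 CPM without and 27.8, 27.8, 32.5, 29.8 and 33.4 CPM fresh. The no-lactate MHC-IIhi libraries ranged most widely, with library 7 lowest, and lactate MHC-IIlo lay below no-lactate MHC-IIlo. Ifit2 rose by log2 fold changes of 5.50 and 6.13 in the same 2 subsets, and Ifit3, a partner of Ifit1, by 5.68 and 6.03. The 3 Ifit genes together had a median rise of 45.2-fold in MHC-IIlo and 65.3-fold in MHC-IIhi TAMs.

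Oas proteins sense double-stranded RNA and make the 2-5A signal that activates the nuclease RNase L, while the Oas-like protein Oasl1 lacks that activity. The 6 Oas and Oas-like genes had median rises of 9.32-fold in MHC-IIlo and 9.19-fold in MHC-IIhi TAMs. Oas3, whose protein is the long form that recognises long double-stranded RNA, had 1075, 1124, 1149.5, 557 and 945 CPM in lactate MHC-IIlo TAMs, 1234, 1267, 1067, 1153 and 1108 CPM in no-lactate MHC-IIlo TAMs and 36.7, 50.5, 53.6, 40.7 and 42.9 CPM in fresh MHC-IIlo TAMs. In MHC-IIhi TAMs Oas3 had 1195, 1026, 1034, 977 and 761 CPM with lactate, 975, 1095, 1117, 1201 and 835 CPM without and 46.2, 44.99, 47.3, 40.4 and 38.5 CPM fresh. The subsets overlapped in every condition, and Oas3 had the largest log2 rise of the family in MHC-IIlo TAMs, 4.77 ± 0.13, beside 4.63 ± 0.13 in MHC-IIhi TAMs. Oas2 had the smallest rise of the 11 type I genes, at 113, 68.01, 96.5, 62.9 and 102 CPM in lactate MHC-IIlo TAMs, 133, 85.4, 111, 103 and 145 CPM in no-lactate MHC-IIlo TAMs and 27.8, 25.6, 30.2, 24.2 and 32.7 CPM in fresh MHC-IIlo TAMs. In MHC-IIhi TAMs its level was 142, 88.3, 113, 142 and 109.6 CPM with lactate, 82.1, 88.9, 107, 171 and 83.98 CPM without and 26.7, 15.4, 20.9, 21.7 and 20.2 CPM fresh. Its fresh subsets overlapped, and its log2 fold change with culture was 2.09 ± 0.20 in MHC-IIlo and 2.38 ± 0.21 in MHC-IIhi TAMs. Oasl1, described in mice as a brake on Irf7 translation, had 620.1, 735, 900.4, 377 and 530.4 CPM in lactate MHC-IIlo TAMs, 879, 976, 746, 748 and 628 CPM in no-lactate MHC-IIlo TAMs and 94.1, 77.03, 85.05, 82.9 and 82.3 CPM in fresh MHC-IIlo TAMs. In MHC-IIhi TAMs Oasl1 had 1146, 719, 850.4, 739 and 507 CPM with lactate, 972, 989, 1119, 1241 and 627 CPM without and 42.8, 25.1, 45.8, 47.2 and 39.99 CPM fresh. Fresh MHC-IIlo libraries all lay above fresh MHC-IIhi ones, while cultured subsets overlapped. The log2 rise was 3.30 ± 0.21 in MHC-IIlo and 4.65 ± 0.22 in MHC-IIhi TAMs, and the other 3 members, Oas1a, Oas1g and Oasl2, rose by log2 fold changes of 2.61, 3.14 and 3.39 in MHC-IIlo and by 2.45, 2.86 and 3.54 in MHC-IIhi TAMs.

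Mx genes encode dynamin-like GTPases that block viruses, and Mx1 of C57BL/6 mice carries a deletion, so its RNA need not give a working protein. Mx1 had 147, 165, 229, 75.5 and 176 CPM in lactate MHC-IIlo TAMs, 299, 270.1, 241, 226 and 241 CPM in no-lactate MHC-IIlo TAMs and 11.4, 21.1, 20.95, 18.8 and 21.2 CPM in fresh MHC-IIlo TAMs. In MHC-IIhi TAMs Mx1 had 600.2, 277, 446, 476 and 258 CPM with lactate, 414, 487, 576, 747 and 255 CPM without and 23.2, 26.1, 28.4, 26.3 and 27.8 CPM fresh. MHC-IIlo libraries lay wholly below MHC-IIhi ones when fresh and with lactate, and the subsets overlapped without lactate. Mx2, whose protein acts in the cytoplasm and whose gene the annotation lists as a polymorphic pseudogene, had 32.5, 32.1, 49.995, 38.98 and 36.1 CPM in lactate MHC-IIlo TAMs, 44.3, 42.4, 42.5, 36.96 and 41.4 CPM in no-lactate MHC-IIlo TAMs and 1.79, 4.05, 3.43, 2.43 and 2.995 CPM in fresh MHC-IIlo TAMs. Its values in MHC-IIhi TAMs were 83.4, 49.4, 96.7, 78.6 and 65.9 CPM with lactate, 74.1, 85.9, 74.9, 93.3 and 67.2 CPM without and 3.397, 1.71, 3.06, 5.04 and 5.35 CPM fresh. Here the subsets were apart without lactate and overlapped when fresh and with lactate. With culture Mx1 rose by log2 fold changes of 3.83 ± 0.24 and 4.28 ± 0.24 and Mx2 by 3.88 ± 0.24 and 4.42 ± 0.24 in MHC-IIlo and MHC-IIhi TAMs.

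**Figure D3:**
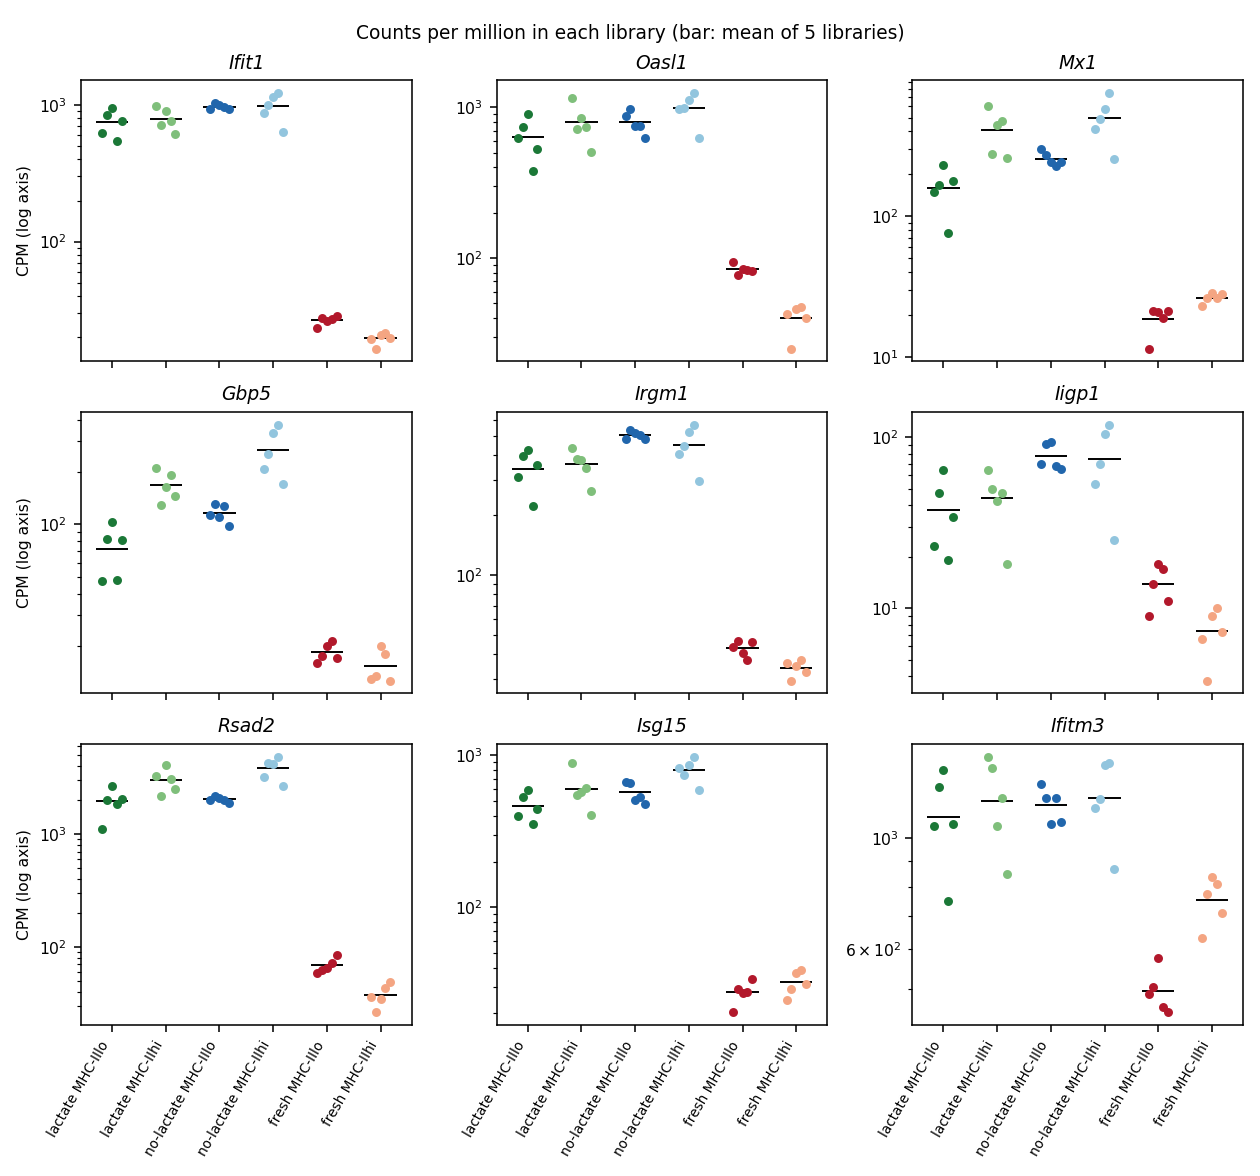
CPM on a log axis in each library for 9 members, with groups along the horizontal axis and a bar at the mean of 5 libraries. Ifit1, Isg15 and Rsad2 stand far higher in cultured than in fresh libraries, Mx1 and Gbp5 have lower means in cultured MHC-IIlo than in cultured MHC-IIhi TAMs, and Ifitm3 moves least.

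Guanylate-binding proteins (Gbp) coat and break open vacuoles that hold microbes and help activate inflammasomes. The 4 Gbp members had a median rise of 8.41-fold in MHC-IIlo and 14.8-fold in MHC-IIhi TAMs. Gbp2 had 253, 505, 838, 302 and 436 CPM in lactate MHC-IIlo TAMs, 493, 744, 652, 634 and 545 CPM in no-lactate MHC-IIlo TAMs and 62.7, 49.2, 62.95, 67.1 and 53.9 CPM in fresh MHC-IIlo TAMs. In MHC-IIhi TAMs Gbp2 had 592, 441, 609, 468 and 446 CPM with lactate, 701, 772, 812, 919.6 and 525 CPM without and 60.3, 50.97, 66.8, 85.9 and 42.8 CPM fresh. The subsets overlapped in all 3 conditions, and the log2 rise was 3.43 ± 0.21 in MHC-IIlo and 3.64 ± 0.21 in MHC-IIhi TAMs. Gbp5, known for promoting NLRP3 inflammasome assembly, had 47.1, 81.98, 103, 47.6 and 81.7 CPM in lactate MHC-IIlo TAMs, 113, 131, 109.7, 127 and 98.3 CPM in no-lactate MHC-IIlo TAMs and 15.9, 17.5, 19.9, 21.3 and 17.1 CPM in fresh MHC-IIlo TAMs. Its MHC-IIhi values were 211, 129, 164, 191 and 146 CPM with lactate, 207, 253, 337, 372 and 171 CPM without and 12.98, 13.4, 20.1, 17.9 and 12.6 CPM fresh. Cultured MHC-IIlo libraries lay below every cultured MHC-IIhi library of the same condition, and the fresh subsets overlapped. Gbp5 rose by log2 fold changes of 2.72 ± 0.20 and 4.16 ± 0.21, Gbp3 by 3.89 and 4.14 and Gbp7 by 1.62 and 2.22 in MHC-IIlo and MHC-IIhi TAMs.

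Immunity-related GTPases (Irg) act with the Gbp proteins on the same vacuoles, the Irgm type as regulators and Iigp1, Tgtp1 and Ifi47 as effectors. The 6 members had a median rise of 10.3-fold in MHC-IIlo and 11.7-fold in MHC-IIhi TAMs. Irgm1, the regulator also linked to autophagy, had 311, 394, 423, 223 and 357 CPM in lactate MHC-IIlo TAMs, 482, 538, 518, 505 and 482 CPM in no-lactate MHC-IIlo TAMs and 43.3, 46.6, 40.5, 37.6 and 46.05 CPM in fresh MHC-IIlo TAMs. In MHC-IIhi TAMs Irgm1 had 435, 385, 376, 346 and 264 CPM with lactate, 403, 443, 525, 567 and 298 CPM without and 36.2, 29.5, 35.03, 37.5 and 32.8 CPM fresh. Among MHC-IIlo TAMs each lactate library lay below each no-lactate library, and fresh MHC-IIlo lay just above fresh MHC-IIhi in CPM, with edges of 37.63 and 37.46 CPM. Igtp (Irgm3), a regulator, had 154, 190.02, 209, 125 and 168 CPM in lactate MHC-IIlo TAMs, 243, 243, 203, 234 and 191 CPM in no-lactate MHC-IIlo TAMs and 26.7, 25.96, 24.9, 25.8 and 24.98 CPM in fresh MHC-IIlo TAMs. In MHC-IIhi TAMs Igtp had 283, 225, 240.3, 220.2 and 170.2 CPM with lactate, 259, 247, 303, 334 and 182 CPM without and 27.6, 27.7, 28.5, 28.9 and 22.7 CPM fresh. No pair of subsets was apart for Igtp. Iigp1, the effector that attacks the Toxoplasma vacuole, had 23.2, 47.1, 64.6, 19.2 and 34.04 CPM in lactate MHC-IIlo TAMs, 70.3, 91.1, 94.6, 67.7 and 65.4 CPM in no-lactate MHC-IIlo TAMs and 9.08, 13.9, 18.2, 17.04 and 11.02 CPM in fresh MHC-IIlo TAMs. For MHC-IIhi TAMs the values were 64.3, 49.9, 42.4, 47.1 and 18.1 CPM with lactate, 53.3, 70.2, 104, 118 and 25.2 CPM without and 6.63, 3.78, 9.04, 10.04 and 7.28 CPM fresh. The cultured MHC-IIhi libraries spread several-fold, and lactate MHC-IIlo lay just below no-lactate MHC-IIlo in CPM, with edges of 64.6 and 65.4 CPM. With culture Irgm1 rose by log2 fold changes of 3.62 ± 0.16 and 3.74 ± 0.16, Igtp by 3.18 ± 0.15 and 3.33 ± 0.15 and Iigp1 by 2.55 ± 0.34 and 3.36 ± 0.35 in MHC-IIlo and MHC-IIhi TAMs. Irgm2 rose by log2 fold changes of 3.55 and 4.00 and Ifi47 by 2.91 and 3.14. Tgtp1 rose by log2 fold changes of 4.17 ± 0.60 and 5.15 ± 0.64 from levels near 0, with means of 3.02 ± 0.806 CPM in no-lactate MHC-IIlo and 0.165 ± 0.202 CPM in fresh MHC-IIlo TAMs, and of 4.18 ± 2.36 CPM in no-lactate MHC-IIhi and 0.111 ± 0.0908 CPM in fresh MHC-IIhi TAMs (SD, n = 5 each).

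The 4 transcription factors of the set had a median rise of 6.90-fold in MHC-IIlo and 9.76-fold in MHC-IIhi TAMs. Irf7, the factor that drives interferon alpha genes and amplifies the response, had 2833, 3198, 3530.01, 1671 and 2714 CPM in lactate MHC-IIlo TAMs, 3255, 3702, 2803, 2985 and 2776 CPM in no-lactate MHC-IIlo TAMs and 150.1, 164, 162, 161 and 190.03 CPM in fresh MHC-IIlo TAMs. In MHC-IIhi TAMs Irf7 had 3603, 2783, 2936, 2759 and 2229 CPM with lactate, 3319.9, 3417, 3241, 3437 and 2449.8 CPM without and 101, 78.4, 101, 124 and 111 CPM fresh. Fresh MHC-IIlo libraries were all higher than fresh MHC-IIhi ones and the cultured subsets overlapped. Irf1, which responds quickly to interferon gamma through its GAS, had 118, 134, 120.4, 101 and 131 CPM in lactate MHC-IIlo TAMs, 179, 179, 144, 178 and 157 CPM in no-lactate MHC-IIlo TAMs and 33.9, 30.7, 35.5, 39.5 and 33.8 CPM in fresh MHC-IIlo TAMs. Values for MHC-IIhi TAMs were 307, 211, 212, 238 and 184 CPM with lactate, 235, 214, 290.5, 333 and 191 CPM without and 35.98, 25.5, 38.2, 43.5 and 36.8 CPM fresh. In CPM, cultured MHC-IIlo lay below cultured MHC-IIhi in both conditions, lactate MHC-IIlo lay below no-lactate MHC-IIlo, and the fresh subsets overlapped. Without lactate the gap between subsets was narrow, with edges of 179 and 191 CPM. Stat2, the partner of IRF9, had 494, 463, 556, 406 and 507 CPM in lactate MHC-IIlo TAMs, 643, 547, 514, 555 and 594 CPM in no-lactate MHC-IIlo TAMs and 66.3, 73.4, 67.4, 49.5 and 57.2 CPM in fresh MHC-IIlo TAMs. In MHC-IIhi TAMs Stat2 had 973, 676, 718, 839 and 649 CPM with lactate, 717, 783, 883, 1108 and 551 CPM without and 67.4, 70.5, 62.5, 57.4 and 55.7 CPM fresh. The subsets were apart only with lactate among these 3 conditions. Irf7 rose by log2 fold changes of 4.29 ± 0.18 and 4.97 ± 0.19, Irf1 by 2.32 ± 0.17 and 2.84 ± 0.18 and Stat2 by 3.25 ± 0.16 and 3.74 ± 0.16 in MHC-IIlo and MHC-IIhi TAMs, and Irf9 rose by 1.83 and 1.61.

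Sensors of foreign nucleic acid (Ifih1 or MDA5, Ddx58 or RIG-I, Dhx58 or LGP2, the kinase Eif2ak2 or PKR, and Zbp1) had a median rise of 4.98-fold in MHC-IIlo and 6.3998-fold in MHC-IIhi TAMs. Ddx58 had 323, 337, 392, 302 and 338 CPM in lactate MHC-IIlo TAMs, 415, 419, 384, 404 and 364 CPM in no-lactate MHC-IIlo TAMs and 55.6, 77.5, 61.7, 62.6 and 59.1 CPM in fresh MHC-IIlo TAMs. In MHC-IIhi TAMs Ddx58 had 544, 459.6, 454, 492 and 370.2 CPM with lactate, 422, 493, 597, 588 and 339.6 CPM without and 66.9, 66.2, 61.02, 53.5 and 57.9 CPM fresh. The subsets overlapped in each condition. Eif2ak2, which stops translation on double-stranded RNA, had 128, 113, 114, 138 and 135 CPM in lactate MHC-IIlo TAMs, 144, 134, 159.6, 152 and 155 CPM in no-lactate MHC-IIlo TAMs and 49.8, 56.6, 49.05, 39.6 and 50.97 CPM in fresh MHC-IIlo TAMs. Its MHC-IIhi values were 180.2, 177, 179.6, 227 and 177 CPM with lactate, 138, 162, 219, 202 and 136 CPM without and 47.6, 48.2, 43.3, 34.9 and 43.999 CPM fresh. Only with lactate were its subsets apart, MHC-IIlo being lower. The log2 rises of Ddx58 were 2.71 ± 0.14 and 3.04 ± 0.14, those of Eif2ak2 1.66 ± 0.12 and 2.01 ± 0.12, and those of Zbp1 3.24 and 3.50 in MHC-IIlo and MHC-IIhi TAMs. Ifih1 rose by log2 fold changes of 2.31 and 2.68 and Dhx58 by 2.11 and 2.40.

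ISG15 is a ubiquitin-like tag that Herc6 attaches in mice and Usp18 removes, and Usp18 also damps signalling at the type I receptor. The group, with Trim25, had a median rise of 15.8-fold in MHC-IIlo and 22.03-fold in MHC-IIhi TAMs. Isg15 had 397, 536, 592, 356 and 447 CPM in lactate MHC-IIlo TAMs, 673, 659.6, 511, 535 and 477 CPM in no-lactate MHC-IIlo TAMs and 20.3, 29.1, 27.4, 27.6 and 33.7 CPM in fresh MHC-IIlo TAMs. In MHC-IIhi TAMs Isg15 had 892, 550.1, 576, 606 and 404 CPM with lactate, 824, 746, 862, 979.98 and 596 CPM without and 24.5, 28.9, 36.9, 38.4 and 31.3 CPM fresh. Usp18 had 421, 599.6, 720.4, 388 and 532 CPM in lactate MHC-IIlo TAMs, 588, 771, 647, 566 and 611 CPM in no-lactate MHC-IIlo TAMs and 22.4, 21.4, 19.95, 21.03 and 22.9 CPM in fresh MHC-IIlo TAMs. The subsets overlapped for Isg15 in every condition. In MHC-IIhi TAMs Usp18 had 552, 444, 559, 452 and 370.3 CPM with lactate, 652, 646, 629, 723 and 514 CPM without and 18.3, 21.5, 22.98, 24.4 and 13.97 CPM fresh. Usp18 too overlapped between subsets throughout. Herc6 had 80.1, 104, 129, 115 and 116 CPM in lactate MHC-IIlo TAMs, 128, 129.9, 139, 146 and 142 CPM in no-lactate MHC-IIlo TAMs and 11.3, 12.8, 14.6, 10.9 and 12.3 CPM in fresh MHC-IIlo TAMs. In MHC-IIhi TAMs Herc6 had 162, 136, 186, 176 and 155 CPM with lactate, 185, 205, 205, 228 and 153 CPM without and 13.1, 10.9, 9.14, 9.39 and 10.5 CPM fresh. In CPM, cultured MHC-IIlo lay below cultured MHC-IIhi in both conditions. The gaps were narrow, with edges of 146 and 153 CPM without lactate and 129 and 136 CPM with it. In MHC-IIlo and MHC-IIhi TAMs, Isg15 rose by log2 fold changes of 4.43 ± 0.20 and 4.68 ± 0.20, Usp18 by 4.94 ± 0.17 and 5.01 ± 0.17, Herc6 by 3.53 ± 0.12 and 4.24 ± 0.12 and Trim25, a ubiquitin ligase that supports RIG-I, by 1.92 and 1.93.

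Enzymes that act on nucleotides or RNA differed widely in their rise. Rsad2 (viperin) makes a chain-terminating nucleotide, and its neighbour Cmpk2 is a nucleotide kinase. Rsad2 had 1116, 2010.4, 2691, 1862 and 2057 CPM in lactate MHC-IIlo TAMs, 2021, 2164, 2073, 2008 and 1876 CPM in no-lactate MHC-IIlo TAMs and 58.5, 62.1, 64.4, 72.4 and 85.04 CPM in fresh MHC-IIlo TAMs. In MHC-IIhi TAMs Rsad2 had 3297, 2159, 4102, 3048 and 2527 CPM with lactate, 3179, 4265, 4147, 4839 and 2656 CPM without and 36.03, 26.3, 34.4, 43.4 and 48.6 CPM fresh. MHC-IIlo was higher than MHC-IIhi in all fresh libraries and lower in all no-lactate libraries. Cmpk2 had 412, 665, 855, 287 and 599 CPM in lactate MHC-IIlo TAMs, 762, 765, 726, 691 and 605 CPM in no-lactate MHC-IIlo TAMs and 25.7, 24.7, 31.3, 27.6 and 38.03 CPM in fresh MHC-IIlo TAMs. For Cmpk2 in MHC-IIhi TAMs the values were 1448, 862, 1265, 1023 and 709.7 CPM with lactate, 968, 1412, 1538, 1749.98 and 722 CPM without and 15.6, 18.2, 17.2, 19.9 and 20.3 CPM fresh. Its fresh subsets were apart in the same direction, and its cultured subsets overlapped. Samhd1, which degrades the nucleotides that viruses need, had 704, 598, 564, 383 and 619 CPM in lactate MHC-IIlo TAMs, 979.7, 941, 758, 885 and 867 CPM in no-lactate MHC-IIlo TAMs and 429, 459.6, 419.9, 393 and 357 CPM in fresh MHC-IIlo TAMs. In MHC-IIhi TAMs Samhd1 had 1261, 885, 859.9, 975 and 659 CPM with lactate, 974, 959, 1274, 1408 and 681 CPM without and 597, 692, 635, 619 and 593 CPM fresh. Fresh MHC-IIlo lay below fresh MHC-IIhi, lactate MHC-IIlo lay below no-lactate MHC-IIlo, and the lowest no-lactate MHC-IIhi library lay within the fresh range. Rsad2 rose by log2 fold changes of 4.94 ± 0.22 and 6.69 ± 0.24, Cmpk2 by 4.64 ± 0.23 and 6.17 ± 0.25, Samhd1 by 1.17 ± 0.15 and 0.80 ± 0.15 and the exonuclease Isg20 by 3.57 and 3.62 in MHC-IIlo and MHC-IIhi TAMs.

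Bst2 (tetherin) holds budding virus at the cell surface, and Ifitm3 blocks virus entry from endosomes. Bst2 had 892, 1162, 1303, 611 and 1057 CPM in lactate MHC-IIlo TAMs, 1024, 1291, 965, 935 and 986 CPM in no-lactate MHC-IIlo TAMs and 104, 108, 118, 112 and 142 CPM in fresh MHC-IIlo TAMs. In MHC-IIhi TAMs Bst2 had 914, 796, 856, 752 and 629 CPM with lactate, 907, 880.2, 847, 999.6 and 798 CPM without and 75.9, 73.5, 96.3, 89.4 and 84.5 CPM fresh. Fresh MHC-IIlo lay above fresh MHC-IIhi. Ifitm3 had 1057, 1264, 1372, 751 and 1069 CPM in lactate MHC-IIlo TAMs, 1287, 1207, 1067, 1202 and 1078 CPM in no-lactate MHC-IIlo TAMs and 489, 505, 577, 460.3 and 449 CPM in fresh MHC-IIlo TAMs. Ifitm3 in MHC-IIhi TAMs stood at 1456, 1385, 1056, 1201 and 850.5 CPM with lactate, 1149.6, 1197, 1402, 1416 and 868 CPM without and 631, 775, 835, 809 and 711 CPM fresh. Here fresh MHC-IIlo lay below fresh MHC-IIhi, and the cultured subsets overlapped at like levels. The log2 rise of Bst2 was 3.22 ± 0.15 and 3.44 ± 0.15 and that of Ifitm3 1.30 ± 0.13 and 0.72 ± 0.13 in MHC-IIlo and MHC-IIhi TAMs. Ifitm3 had the smallest rise of any member in MHC-IIhi TAMs.

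Parp9, Parp12 and Parp14 belong to the ADP-ribosyltransferase family and Dtx3l is the ubiquitin ligase that pairs with Parp9. Parp14 had 808, 755, 964, 650.4 and 811 CPM in lactate MHC-IIlo TAMs, 907, 895, 903, 929 and 925 CPM in no-lactate MHC-IIlo TAMs and 147, 153, 136, 146 and 142 CPM in fresh MHC-IIlo TAMs. In MHC-IIhi TAMs Parp14 had 1213, 1012, 1071, 1133 and 966 CPM with lactate, 963, 979, 1037, 1063 and 845 CPM without and 127, 117, 103, 97.96 and 109 CPM fresh. In CPM, fresh MHC-IIlo lay above fresh MHC-IIhi, and lactate MHC-IIlo below lactate MHC-IIhi. The gap with lactate was narrow, with edges of 963.5 and 966.4 CPM. The 4 genes had median rises of 6.39-fold in MHC-IIlo and 7.11-fold in MHC-IIhi TAMs, from 2.53 (Parp9) to 2.97 (Dtx3l) on the log2 scale in MHC-IIlo and from 2.64 (Parp9) to 3.18 (Parp14) in MHC-IIhi TAMs.

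The last 10 members have varied roles. Xaf1, which promotes cell death, had 144, 167, 203, 136 and 151 CPM in lactate MHC-IIlo TAMs, 184, 195, 192, 181 and 169 CPM in no-lactate MHC-IIlo TAMs and 12.1, 12.8, 11.95, 12.9 and 11.9 CPM in fresh MHC-IIlo TAMs. In MHC-IIhi TAMs Xaf1 had 179.9, 139, 176, 137 and 141 CPM with lactate, 208, 193, 186, 206 and 175 CPM without and 7.57, 10.9, 12.6, 12.5 and 11.3 CPM fresh. Xaf1 showed no gap between subsets in any condition. Ifi35 had 172, 203, 225, 152 and 168 CPM in lactate MHC-IIlo TAMs, 211, 236, 193, 195 and 172 CPM in no-lactate MHC-IIlo TAMs and 35.3, 41.3, 33.9, 29.3 and 29.9 CPM in fresh MHC-IIlo TAMs. In MHC-IIhi TAMs Ifi35 had 237, 175, 177, 169 and 141 CPM with lactate, 234, 187, 227, 239.997 and 169 CPM without and 39.3, 46.5, 46.4, 44.2 and 39.2 CPM fresh. Fresh MHC-IIlo values of Ifi35 lay on the low side with some overlap. Gm4955, listed in RefSeq as a synonym of Ifi206 of the family of DNA-binding p200 proteins, had 242, 426, 792, 217 and 368 CPM in lactate MHC-IIlo TAMs, 478, 599, 493, 493 and 405 CPM in no-lactate MHC-IIlo TAMs and 9.19, 9.56, 8.19, 10.2 and 10.97 CPM in fresh MHC-IIlo TAMs. In MHC-IIhi TAMs Gm4955 had 487, 376, 694, 432 and 405 CPM with lactate, 642, 777, 585, 723 and 527 CPM without and 8.97, 8.69, 9.35, 10.6 and 8.47 CPM fresh. Gm4955 had the largest log2 rise of all members in MHC-IIlo TAMs, 5.74 ± 0.18, beside 6.18 ± 0.18 in MHC-IIhi TAMs, with subsets overlapping throughout. The 10 genes had a median rise of 11.3-fold in MHC-IIlo and 13.96-fold in MHC-IIhi TAMs. In MHC-IIlo and MHC-IIhi TAMs, Xaf1 rose by log2 fold changes of 3.96 and 4.17, Ifi35 by 2.64 and 2.33 and Ifi44 by 5.51 and 5.804. Trim30a rose by log2 fold changes of 2.38 and 2.69, Rnf213, a large ubiquitin ligase, by 3.31 and 3.65, and Slfn5 by 3.20 and 3.44. Sp100, a nuclear body protein, rose by log2 fold changes of 2.22 and 2.40, Rtp4 by 3.74 and 3.95 and Phf11d by 3.68 and 4.13.

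The culture effect itself differed between the subsets for 8 members (edgeR quasi-likelihood interaction test), where it differed for 14.2% of all genes, 5.98% with a larger and 8.2% with a smaller effect in MHC-IIlo TAMs, so the count of 8 in 54 is near the background. It was smaller in MHC-IIlo than in MHC-IIhi TAMs for Rsad2 (-1.75 ± 0.27, adjusted p = 0.00017), Cmpk2 (-1.53 ± 0.29, 0.00101), Gbp5 (-1.44 ± 0.27, 0.00116), Oasl1 (-1.36 ± 0.27, 0.00193), Herc6 (-0.71 ± 0.16, 0.00379), Irf7 (-0.68 ± 0.22, 0.0443) and Parp14 (-0.47 ± 0.13, 0.0212), each as the log2 difference of effects with SE and then the adjusted p. For Ifitm3 it was larger in MHC-IIlo TAMs (0.58 ± 0.18, 0.0357). The difference was below 0 for 47 of 54 members, as for 52.1% of all genes, with a median of -0.29, against -0.02 over all genes. Rsad2, Cmpk2, Oasl1, Irf7 and Parp14 started higher in fresh MHC-IIlo than in fresh MHC-IIhi TAMs, and Ifitm3 started lower. Without no-lactate MHC-IIhi 7, in which 51 of 54 members were lowest in their group, 18 members differed, where 14% of all genes did. Without no-lactate MHC-IIhi 6 the difference was below 0 for 43 members, with a median of -0.17, and each of the 3 FPKM fits gave 40 below 0, with medians of -0.19 to -0.17. With all 30 libraries in one fit the calls were 5, and those of Parp14 (adjusted p = 0.117), Irf7 (0.155) and Ifitm3 (0.18) were lost. Irf7 lost its call when 13 of the 20 libraries were left out in turn and Ifitm3 when 11 were, with adjusted p-values up to 0.0882 and 0.0716.

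Members differed between fresh MHC-IIlo and fresh MHC-IIhi TAMs in both directions, with more of them higher than lower in MHC-IIlo TAMs. Of 53 members tested (Tgtp1 had too few reads), 16 were higher and 7 lower in fresh MHC-IIlo TAMs (edgeR quasi-likelihood test, adjusted p under 0.05), where 29.2% of all genes were called, 14% higher and 15.2% lower. The median log2 fold change was 0.12, against -0.00 over all genes. The 11 type I genes gave 5 higher and 3 lower, the 9 GTPases tested gave 4 higher and none lower, and the others 7 higher and 4 lower. Libraries of the subsets were wholly apart for 12 members on the high side and 6 on the low side, shares that are 11.4% and 11.1% over all genes.

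Oasl1 had the largest difference, 84.3 ± 6.22 CPM in fresh MHC-IIlo and 40.2 ± 8.898 CPM in fresh MHC-IIhi TAMs (SD, n = 5 each), a log2 fold change of 1.07 ± 0.16 (SE, adjusted p = 0.000384). Iigp1 followed at 0.91 ± 0.26 (adjusted p = 0.0202, and 0.0511 without fresh MHC-IIlo 4), then Rsad2 at 0.87 ± 0.19 (0.0048), Cmpk2 at 0.70 ± 0.14 (0.002), Irf7 at 0.69 ± 0.13 (0.00177) and Ifit2 at 0.63 ± 0.12 (0.00107). The other members called higher lay between 0.26 and 0.49 on the log2 scale. They were Bst2, Slfn5, Ifit1, Oas2, Irgm2, Gbp7, Parp14, Irgm1, Trim30a and Oasl2. Samhd1 was lower at 412 ± 38.8 CPM in fresh MHC-IIlo and 627 ± 39.9 CPM in fresh MHC-IIhi TAMs (-0.60 ± 0.07, 3.07e-05), as was Ifitm3 at 496 ± 50.5 and 752 ± 82.3 CPM (-0.60 ± 0.09, 0.000198). Mx1 was lower with a log2 fold change of -0.49 ± 0.14 (0.0213, and 0.0667 without fresh MHC-IIhi 5), and Ifi35, Oas1g, Oas1a and Irf9 lay between -0.34 and -0.18. The genes moved apart within families, since Oas2, Oasl1 and Oasl2 were higher while Oas1a and Oas1g were lower.

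With the replicate number as a block, which pairs the fresh libraries, 28 members were called (39.4% of all genes), the further 5 being Dhx58, Eif2ak2, Gbp5, Ifit3 and Rtp4, all higher. When each of the 10 libraries was left out in turn, 16 of the 23 calls were kept throughout. Calls were lost for Oas1g and Irf9 without 8 of the 10 libraries, for Oas2 without 6, for Trim30a without 3 and for Oasl2 without fresh MHC-IIlo 4 (adjusted p = 0.0535). Fitted together with the cultured libraries, 6 members were called (20.8% of all genes), 4 higher and 2 lower. Neutrophil markers summed to 1103 to 1881 CPM in fresh MHC-IIlo and 295 to 674 CPM in fresh MHC-IIhi libraries, and 4 epithelial or tumour markers to 132 to 303 and 486 to 619.7 CPM, with Epcam and Krt18 at 0 in fresh MHC-IIlo. Fresh libraries were also wholly apart in T and NK cell markers (1.02 to 5.73 CPM in MHC-IIlo and 8.72 to 14.6 CPM in MHC-IIhi), in B cell markers (3.35 to 13.1 and 13.5 to 32.8 CPM), in macrophage markers (11049 to 12266 and 7618 to 9138 CPM) and in dendritic cell markers, as given above. The part of these markers in the fresh subset differences was not tested.

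After culture without lactate no member was higher in MHC-IIlo TAMs and 7 of 54 were lower (edgeR quasi-likelihood test), where 20.8% of all genes were called, 9.19% higher and 11.6% lower, so the count of lower members is near the background. Gbp5 averaged 116 ± 13.4 CPM in no-lactate MHC-IIlo and 268 ± 85.1 CPM in no-lactate MHC-IIhi TAMs (SD, n = 5 each), a log2 fold change of -1.18 ± 0.26 (SE, adjusted p = 0.00228). Mx2 averaged 41.5 ± 2.76 and 79.1 ± 10.4 CPM (-0.90 ± 0.18, 0.000872), Rsad2 2029 ± 105 and 3817 ± 882 CPM (-0.88 ± 0.24, 0.0108) and Herc6 137 ± 7.67 and 195 ± 27.9 CPM (-0.48 ± 0.14, 0.016). Mx1 (-0.93 ± 0.32, 0.0461), Irf1 (-0.56 ± 0.19, 0.0375) and Phf11d (-0.55 ± 0.19, 0.0413) were called as well. MHC-IIlo libraries lay wholly below MHC-IIhi libraries for 5 members, as for 10.9% of all genes. The calls of Mx2, Gbp5 and Rsad2 were kept without any single library. The count was 3 without no-lactate MHC-IIhi 6, 4 without no-lactate MHC-IIhi 3 or no-lactate MHC-IIlo 4, 5 or 6, and 9 without no-lactate MHC-IIhi 7. For these fits the shares of all genes called are not given.

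With lactate 18 members were lower in MHC-IIlo than in MHC-IIhi TAMs and none higher (edgeR quasi-likelihood test), where 22.4% of all genes were called, 9.15% higher and 13.3% lower. The median log2 fold change was -0.36, against 0.02 over all genes, and libraries were wholly apart on the low side for 15 members, as for 6.89% of all genes. Mx1 averaged 159 ± 55.5 CPM in lactate MHC-IIlo and 412 ± 144 CPM in lactate MHC-IIhi TAMs (SD, n = 5 each), a log2 fold change of -1.38 ± 0.33 (SE, adjusted p = 0.00433). Gbp5 averaged 72.3 ± 24.4 and 168 ± 33.1 CPM (-1.22 ± 0.26, 0.00175), Mx2 37.9 ± 7.31 and 74.8 ± 17.98 CPM (-1.01 ± 0.18, 0.000299), Irf1 121 ± 13.1 and 230.4 ± 46.7 CPM (-0.95 ± 0.19, 0.000879) and Eif2ak2 125 ± 11.7 and 188 ± 21.8 CPM (-0.62 ± 0.12, 7e-04). Herc6 (-0.61), Rnf213 (-0.75), Phf11d (-0.72), Gbp7 (-0.62) and Stat2 (-0.69) followed. The remaining 8 calls were Cmpk2, Samhd1, Rsad2, Ifih1, Parp9, Dtx3l, Parp14 and Trim30a, between -0.92 and -0.39.

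Leaving out lactate MHC-IIhi 1 left 9 calls and a median of -0.20, and leaving out lactate MHC-IIlo 5 left 10 lower and added Bst2 as higher, with a median of -0.22 and 25.3% of all genes called. Without lactate MHC-IIlo 5 the log2 fold changes were -1.15 for Mx1, -1.04 for Gbp5, -0.94 for Mx2, -0.82 for Irf1 and -0.56 for Eif2ak2. Herc6, Rnf213, Phf11d, Gbp7 and Stat2 then lay between -0.69 and -0.54. The 8 calls lost without that library were those of Cmpk2, Samhd1, Rsad2, Ifih1, Parp9, Dtx3l, Parp14 and Trim30a, with log2 fold changes between -0.70 (Cmpk2) and -0.30 (Trim30a) and adjusted p-values of 0.054 (Parp9) to 0.105 (Trim30a). Without lactate MHC-IIhi 4 or 5 the count was 12. The shares of all genes called are not given for the fits without a lactate MHC-IIhi library. The 9 calls kept throughout were Mx1, Mx2, Gbp5, Gbp7, Irf1, Eif2ak2, Herc6, Rnf213 and Phf11d, and Stat2 was lost only without lactate MHC-IIhi 1 (adjusted p = 0.0534).

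Set side by side, 7 of 54 members were lower in MHC-IIlo TAMs in both cultured conditions (Gbp5, Herc6, Irf1, Mx1, Mx2, Phf11d and Rsad2), as were 8.2% of all genes, so the count is near the background. Mx1 was lower in all 3 conditions, as were 3.67% of all genes. Gbp5 and Mx2 kept both cultured calls without any single library. The no-lactate call was lost for Mx1 without 9 of the 10 libraries in turn (adjusted p up to 0.140), for Phf11d without 8 (up to 0.132), for Irf1 without 6 (up to 0.123) and for Herc6 without no-lactate MHC-IIhi 6 (0.0544). Rsad2 was higher in fresh MHC-IIlo TAMs and lower in both cultured MHC-IIlo groups (0.568% of all genes, and 0.783% were higher fresh and lower without lactate), and its lactate call was lost without 7 of the 10 libraries (up to 0.156). Cmpk2, Gbp7, Parp14, Rsad2 and Trim30a were higher in fresh MHC-IIlo and lower in lactate MHC-IIlo TAMs, 5 of 54 members, as were 1.11% of all genes. Gbp7 kept both calls without any single library, while the lactate call was lost for Cmpk2 without 6 libraries, for Parp14 without 7 and for Trim30a without 9. Dendritic cell markers were lower in MHC-IIlo than in MHC-IIhi libraries in each of the 3 conditions. The 8 T and NK cell markers summed to 0.526 to 3.32 CPM in lactate MHC-IIlo and 3.796 to 7.85 CPM in lactate MHC-IIhi, and to 0.990 to 5.05 CPM in no-lactate MHC-IIlo and 6.06 to 16.9 CPM in no-lactate MHC-IIhi libraries. Neutrophil markers summed to 599 to 1717 CPM in lactate MHC-IIlo and 1553 to 2347 CPM in lactate MHC-IIhi libraries. With lactate, mitochondrial genes held 0.280 to 0.623% of counts in MHC-IIlo libraries and 0.586 to 0.797% in MHC-IIhi libraries. Without lactate they held 0.209 to 0.338% in MHC-IIlo libraries and 0.444 to 0.562% in MHC-IIhi libraries. The part of these markers and of the mitochondrial share in these differences was not tested.

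**Figure D4:**
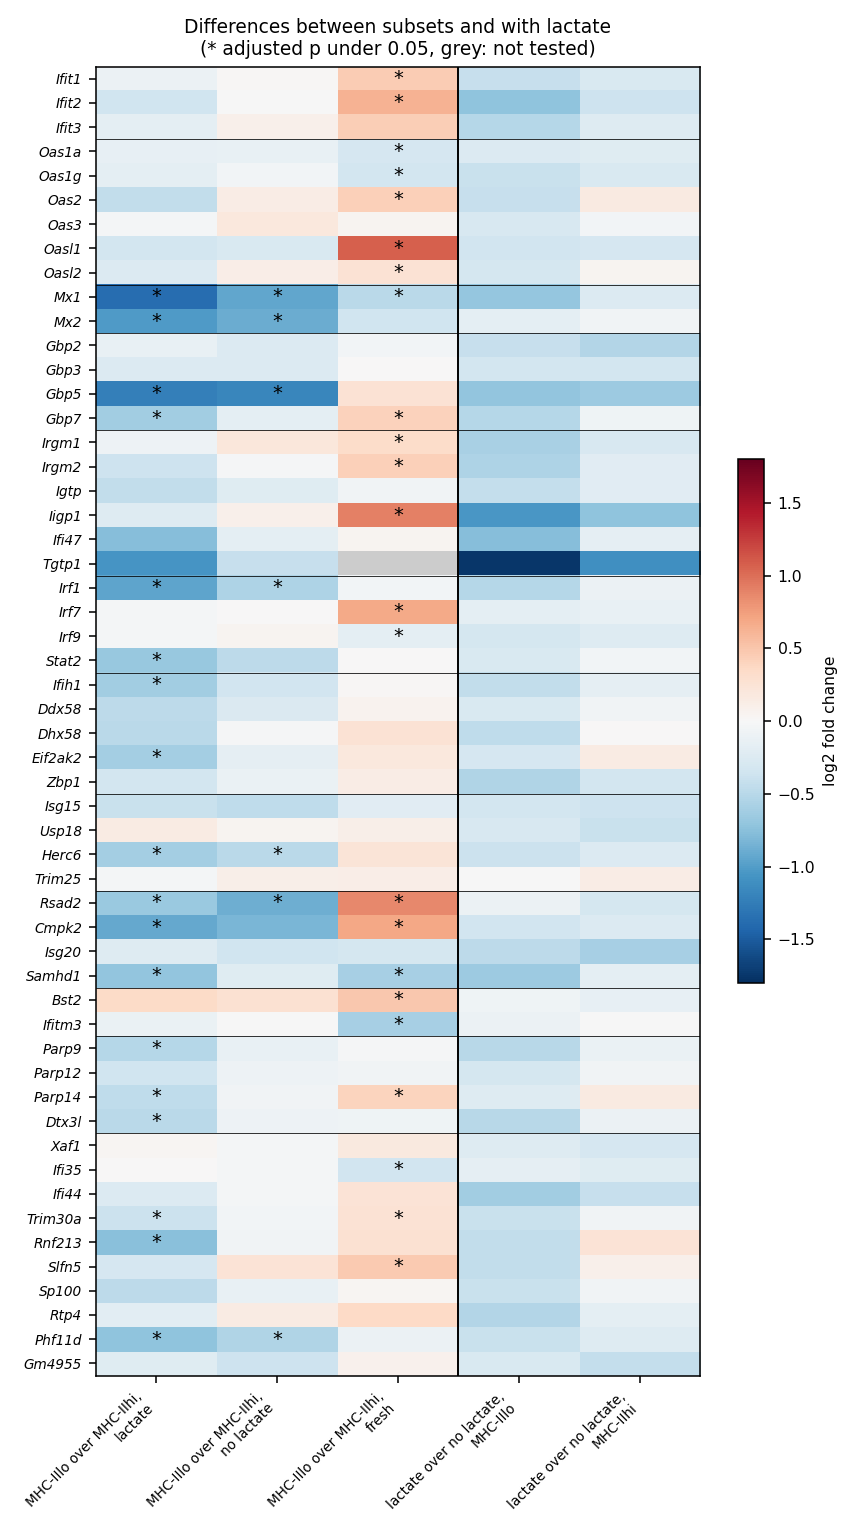
Log2 fold changes of the 54 members in 5 comparisons, blue below 0, red above and grey where not tested, with members grouped by family and a star at an adjusted p under 0.05. The 3 left columns compare MHC-IIlo with MHC-IIhi TAMs, and show mostly blue cells with 18 stars for lactate, 7 for no lactate and a red and blue mix with 23 for fresh, while the 2 right columns compare lactate with no lactate and carry no star.

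Lactate itself gave no member past the threshold in either subset when the 20 cultured libraries were fitted by edgeR with their group as the only term. In MHC-IIlo TAMs 0 of 54 members were called by edgeR's quasi-likelihood test, where 1.54% of all genes were, while 24 members had an unadjusted p under 0.05, against 17.4% of all genes. All 54 log2 fold changes were below 0 in MHC-IIlo TAMs, as were 48% of those of all genes, with a median of -0.41 against 0.01. Lactate libraries lay wholly below no-lactate libraries for 18 members, as for 2.93% of all genes. DESeq2 called 2 members (Dtx3l and Tgtp1), both lower, where it called 5.16% of all genes, and limma on log2(FPKM + 1) called Samhd1. With all 30 libraries in one edgeR fit 4 members were called (Dtx3l, Irgm2, Parp9 and Tgtp1), all lower, where 3.7% of all genes were. A block on the column numbers, which were not taken as pairs, gave 11 calls, where it called 7.86% of all genes. With lactate MHC-IIlo 5 also out of that fit there were 2, where 4.48% of all genes were called. In MHC-IIhi TAMs 0 of 54 were called by edgeR and 0 by DESeq2, where 0.265% of all genes were called by edgeR, and 2 had an unadjusted p under 0.05, against 9.89% of all genes. Of the 54, 46 had a log2 fold change below 0 there, as did 51.1% of all genes, with a median of -0.20. Without no-lactate MHC-IIhi 6 there were 33 below 0 with a median of -0.08, and without lactate MHC-IIhi 6 the median was -0.11. Without lactate MHC-IIhi 1 the median was -0.34 and 14 members had an unadjusted p under 0.05, and without no-lactate MHC-IIhi 7 these were -0.32 and 11. Between these MHC-IIhi groups neutrophil markers summed to 1553 to 2347 CPM with lactate and 735 to 1056 CPM without, and mitochondrial genes held 0.586 to 0.797% of counts with lactate and 0.444 to 0.562% without, so the libraries were wholly apart in both. Ly6g, one of the 8 neutrophil markers, was at 0 in all lactate MHC-IIhi libraries and not in all no-lactate MHC-IIhi ones. In MHC-IIlo TAMs both measures overlapped, with neutrophil markers at 599 to 1717 CPM with lactate and 776 to 1041 CPM without, and mitochondrial shares of 0.280 to 0.623% with lactate and 0.209 to 0.338% without. Retnlg was at 0 in all libraries of both cultured MHC-IIlo groups, and Ly6g in all those with lactate. The part of neutrophil markers and of the mitochondrial share in the lactate comparison was not tested.

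In MHC-IIlo TAMs the Irg genes had the lowest median, -0.67, with 5 of 6 wholly apart. Iigp1 averaged 37.6 ± 18.6 CPM in lactate MHC-IIlo and 77.8 ± 13.9 CPM in no-lactate MHC-IIlo TAMs (SD, n = 5 each), a log2 fold change of -1.05 ± 0.40 (SE, adjusted p = 0.177). Irgm1 averaged 342 ± 78.5 and 505 ± 23.9 CPM (-0.59 ± 0.22, 0.166), and Tgtp1 0.94 ± 0.504 and 3.02 ± 0.806 CPM (-1.75 ± 0.45, 0.0538). The 11 type I genes had a median of -0.40. Ifit2 averaged 1233 ± 423 CPM with lactate and 2026 ± 138 CPM without (-0.73 ± 0.33, 0.258), Mx1 159 ± 55.5 and 255 ± 29.2 CPM (-0.70 ± 0.32, 0.264), Samhd1 574 ± 118 and 886 ± 84.4 CPM (-0.66 ± 0.24, 0.147) and Irf1 121 ± 13.1 and 167 ± 16.1 CPM (-0.51 ± 0.19, 0.157). Rsad2, Bst2, Ifitm3 and Trim25 lay nearest to 0, between -0.11 and -0.01. Without lactate MHC-IIlo 5 there were 50 members below 0 and a median of -0.25, with 0 called by edgeR (0.94% of all genes) and 16 at an unadjusted p under 0.05. The shares of all genes below 0 and at that unadjusted p are not given for this setting. The median was then -0.48 for the Irg genes and -0.25 for the type I genes. The log2 fold changes without that library were -0.83 for Iigp1, -0.41 for Irgm1, -1.77 for Tgtp1, -0.51 for Ifit2, -0.47 for Mx1, -0.48 for Samhd1, -0.38 for Irf1 and -0.25 for Ifit1. Bst2, Ifitm3 and Trim25 then lay above 0, between 0.06 and 0.12, and Rsad2 at -0.00.

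In MHC-IIhi TAMs Gbp5 averaged 168 ± 33.1 CPM with lactate and 268 ± 85.1 CPM without (SD, n = 5 each), a log2 fold change of -0.66 with a 95% interval of -1.19 to -0.12 (adjusted p = 0.378). Tgtp1 was at -1.10 ± 0.43 (0.379), and the largest positive value was that of Rnf213, 0.25 ± 0.18 (0.693). Ifit1 had -0.28 with an interval of -0.73 to 0.18 in MHC-IIhi and -0.41 with an interval of -0.86 to 0.04 in MHC-IIlo TAMs. The difference of the lactate effects between the subsets was called for 0 of 54 members by edgeR, where 0% of all genes were called, and 2 had an unadjusted p under 0.05, against 7.44% of all genes. DESeq2 called 0 as well. The difference was below 0 for 44 members, as for 48.9% of all genes, with a median of -0.22. Without lactate MHC-IIlo 5 it was below 0 for 36 members, with a median of -0.06. The median was also nearer 0 without lactate MHC-IIhi 1 (-0.09, 34 below 0) or no-lactate MHC-IIhi 7 (-0.09, 37 below 0), and farther from it without no-lactate MHC-IIhi 6 (-0.36, 48 below 0 and 9 at an unadjusted p under 0.05).

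Of the interferon genes themselves, Ifnb1, which encodes interferon beta, had the most counted reads in cultured libraries. Ifnb1 had 2.05, 2.45, 2.39, 0.373 and 2.79 CPM in lactate MHC-IIlo, 11.5, 7.04, 7.49, 7.49 and 3.05 CPM in lactate MHC-IIhi, 5.55, 3.95, 2.18, 4.12 and 4.36 CPM in no-lactate MHC-IIlo and 8.78, 7.94, 15.9, 23.7 and 3.602 CPM in no-lactate MHC-IIhi libraries. Fresh MHC-IIlo libraries had 0, 0, 0.0952, 0 and 0.406 CPM and fresh MHC-IIhi libraries 0.167, 0, 0, 0.234 and 0 CPM, which is 0 to 8 reads. Ifnb1 rose with culture by log2 fold changes of 5.30 ± 0.75 in MHC-IIlo and 7.12 ± 0.77 in MHC-IIhi TAMs (adjusted p = 4.94e-06 and 9.59e-08, edgeR), values that depend on the few fresh reads. It was lower in cultured MHC-IIlo than in cultured MHC-IIhi TAMs, with log2 fold changes of -1.86 with lactate (0.0105) and -1.53 without (0.0258), and of -1.57 with lactate when lactate MHC-IIlo 5 was left out (0.0162). The other type I and type III interferon genes listed had at most 4 reads in any library. The Ifna genes among them are near-identical copies, so their low counts are as uncertain as those of the members with such copies. Ifng, the gene of interferon gamma, had 0 to 30 reads, with its highest value in a fresh MHC-IIhi library.

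The libraries at the ends of the range were partly the same for Ifnb1 and for the members. In no-lactate MHC-IIhi, library 6 had the most Ifnb1 and the highest value of 45 of 54 members (14.9% of all genes), and library 7 the least Ifnb1 and the lowest value of 51 (13.6% of all genes). In lactate MHC-IIhi, library 1 had the most Ifnb1 and the highest value of 43 members (18.4% of all genes), and library 6 the least and the lowest value of 41 (13.1% of all genes). In lactate MHC-IIlo, library 5 had the least Ifnb1 and the lowest value of 42 members (16.1% of all genes). At the other end of that group they differed, since library 4 had the highest value of 36 members (10.025% of all genes) and library 6 the most Ifnb1. In no-lactate MHC-IIlo, library 1 had the most Ifnb1, and the highest values were spread over library 3 (20 members, 13.6% of all genes) and library 1 (19 members, 18.97% of all genes). Library 4 of that group had the least Ifnb1 (2.18 CPM), and the lowest values were most often in library 6 (21 members, 16.9% of all genes) and library 4 (15 members, 14.3% of all genes). The part of Ifnb1 in the members' levels was not tested. Within groups the members had a median coefficient of variation of 19.9% in lactate MHC-IIlo, 17.5% in lactate MHC-IIhi, 8.81% in no-lactate MHC-IIlo, 21.6% in no-lactate MHC-IIhi, 10.3% in fresh MHC-IIlo and 11.7% in fresh MHC-IIhi TAMs, beside 27.3%, 20.2%, 14.3%, 19.6%, 15.2% and 15.5% over all genes.

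A list of 57 interferon, receptor and signalling genes, written from general knowledge, was read beside the members. In the culture comparison 37 were tested, of which 19 rose and 10 fell in MHC-IIlo TAMs, where 27.6% of all genes rose and 29.8% fell. In MHC-IIhi TAMs 22 rose and 11 fell, where 31.5% of all genes rose and 30.4% fell. Ifngr1, the ligand-binding chain of the interferon gamma receptor, fell with culture, with log2 fold changes of -1.51 ± 0.11 in MHC-IIlo and -2.32 ± 0.11 in MHC-IIhi TAMs (SE). Its libraries had 82.2, 79.4, 80.6, 87.02 and 90.4 CPM in no-lactate MHC-IIlo and 266, 259.5, 246, 239 and 232 CPM in fresh MHC-IIlo TAMs, and 58.4, 56.1, 73.8, 63.3 and 46.97 CPM in no-lactate MHC-IIhi and 284, 314, 288, 319 and 323 CPM in fresh MHC-IIhi TAMs. No cultured library of Ifngr1 reached any fresh one. Ifnar1 rose by log2 fold changes of 0.61 ± 0.11 in MHC-IIhi TAMs and had 0.14 ± 0.11 in MHC-IIlo TAMs (adjusted p = 0.271). Tmem173 (STING), the adaptor of DNA sensing, fell with log2 fold changes of -3.38 and -3.11 in MHC-IIlo and MHC-IIhi TAMs, while the RNA-editing enzyme Adar rose by 2.19 and 2.22 and the kinase Tbk1 by 1.30 and 1.65.

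Between the subsets, 6 of 35 tested signalling genes were higher and 14 lower in fresh MHC-IIlo TAMs, where 14% of all genes were higher and 15.2% lower. Of 37, 1 was higher and 11 lower without lactate (9.19% and 11.6% of all genes), and 1 higher and 15 lower with lactate (9.15% and 13.3%), or 2 higher and 12 lower without lactate MHC-IIlo 5. Socs1, a feedback inhibitor of JAK signalling, was lower in MHC-IIlo in all 3, with log2 fold changes of -1.48 with lactate, -1.87 without and -0.84 fresh (adjusted p = 1.91e-06, 1.05e-07 and 0.00108). Jak2, a kinase of the interferon gamma receptor, was lower with log2 fold changes of -1.98 with lactate, -1.62 without and -0.83 fresh. Without lactate MHC-IIlo 5 the values with lactate were -1.39 for Socs1 and -1.99 for Jak2. For lactate, 0 of the 37 passed an adjusted p under 0.05 by edgeR in either subset, with 13 in MHC-IIlo and 1 in MHC-IIhi TAMs at an unadjusted p under 0.05, where 1.54% and 0.265% of all genes passed the adjusted and 17.4% and 9.89% the unadjusted threshold.

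A further list of 96 interferon-induced genes outside the members was counted in the same way. With culture, 83 of 92 tested rose and 6 fell in MHC-IIlo TAMs, with a median log2 fold change of 2.00, where 27.6% of all genes rose and 29.8% fell. In MHC-IIhi TAMs 85 rose and 5 fell, with a median of 2.25, where 31.5% of all genes rose and 30.4% fell. The rises with the smallest p included those of Oas1b (log2 fold changes of 4.103 and 4.79 in MHC-IIlo and MHC-IIhi TAMs), Slfn8 (3.88 and 4.05) and, in MHC-IIlo TAMs, Cd274, the gene of PD-L1 (3.32). Genes that fell included the chemokine Cxcl9 (-2.78 and -2.75) and Ifitm2 (-1.95 and -1.84), a close relative of Ifitm3. Between cultured subsets, 26 of the 92 were lower and 1 higher in lactate MHC-IIlo TAMs (13.3% and 9.15% of all genes), or 22 lower and 2 higher without lactate MHC-IIlo 5, and 16 were lower and none higher in no-lactate MHC-IIlo TAMs (11.6% and 9.19% of all genes). With lactate 3 were lower in MHC-IIlo TAMs, among them Tor1aip1 (-0.55 ± 0.12, adjusted p = 0.0333) and Gbp9 (-0.59 ± 0.14, 0.0393), where 1.54% of all genes were called. Without lactate MHC-IIlo 5 1 of the 92 was called, and Tor1aip1 and Gbp9 had adjusted p-values of 0.0614 and 0.0696. In MHC-IIhi TAMs 0 passed the threshold by edgeR, with 12 at an unadjusted p under 0.05 (0.265% and 9.89% of all genes).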

How the data were processed

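Bulk RNA-seq of 30 libraries (6 groups of 5) was used as deposited. Read counts per gene were made by the authors with Trimmomatic, STAR and featureCounts on GRCm38, per the submitters' processing notes, which give no versions or strand setting. The deposited FPKM table holds 13778 genes, whose values times gene length have the same sorted values in every column, so they had been quantile-normalised before deposit. The cultured columns name a group and a number that the labels do not, and the main fits used them as members of their group only. Their numbers served as a block in some alternative fits.

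From the counts, CPM were computed with plain library totals. Tests used edgeR 4.0.16 in R 4.3.3 (TMM, filterByExpr, robust quasi-likelihood fit, Benjamini-Hochberg over all genes tested) on 3 sets, which were the 10 fresh libraries, the 20 fresh and no-lactate libraries, and the 20 cultured libraries. Intervals are 95%. Alternatives were RLE scaling, no filter, DESeq2 1.42.0, limma 3.58.1 on log2(FPKM + 1) and log2(FPKM + 0.1), a replicate block, each library left out, and all 30 libraries in one fit. Scripts were tested on simulated data. Numbers were taken as pairs where every same-numbered pair deviated together at r over 0.1. Fresh libraries met this in each of the 5 pairs (r from 0.116 to 0.558), though number 1 correlated best with number 4. Cultured columns did not meet it and were not taken as pairs. Their headings also end in a running index, in which no-lactate MHC-IIhi 7 stands among the cultured libraries numbered 1. What that index marks is not given, and no fit used it as a block. Between lactate and no-lactate MHC-IIlo libraries r was 0.0404 to 0.455, with number 4 under 0.1. No 2 libraries of the same group agreed within sampling noise.

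Members, lists and tests were chosen with earlier results of these data known. Of the members, 29 are given in every library, 19 of them chosen by role and 10 more for being among the 3 with the smallest p in a comparison and direction, and lists name Ifnb1, Ifng, Ifnar1, Ifngr1, Socs1 and the top 3 genes each way. Some genes that this rule names are not reported here.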

Additional observations from a re-analysis of the deposited data

Results flagged for a closer look

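In 7 of the 174 groups of 5 examined (29 members in 6 groups), a library stood farther from the nearest of the others, relative to the range of its group, than Dixon's 95% limit for 5 values, and chance alone flags about 1 in 20 groups. Fresh MHC-IIlo 1 was low for Ifit2 (34.5 CPM, nearest 47.4) and for Mx1 (11.4 CPM, nearest 18.8). No-lactate MHC-IIhi 6 was high for Oas2 (170.9 CPM, nearest 107.4), and no-lactate MHC-IIhi 7 was low for Irf7 (2449.8 CPM, nearest 3241). No-lactate MHC-IIlo 3 was high for Bst2 (1291 CPM, nearest 1024), fresh MHC-IIhi 5 low for Igtp (22.7 CPM, nearest 27.6) and lactate MHC-IIhi 5 high for Eif2ak2 (227 CPM, nearest 180.2).

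The culture effect differed between the subsets by edgeR's interaction test for 8 of 54 members, a count near the background, since 14.2% of all genes differed. The difference, MHC-IIlo minus MHC-IIhi on the log2 scale, was -1.75 for Rsad2 (adjusted p = 0.00017), -1.53 for Cmpk2 (0.00101), -1.44 for Gbp5 (0.00116), -1.36 for Oasl1 (0.00193), -0.71 for Herc6 (0.00379), -0.68 for Irf7 (0.0443) and -0.47 for Parp14 (0.0212), and 0.58 for Ifitm3 (0.0357).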

How the results depend on the processing

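The 164 calls of single members gave 3082 recomputed values, of which 2884 kept their direction and their call, 198 kept their direction and lost the call, and 0 changed direction. Of 7264 recomputed values of results not called, 407 changed sign and 113 passed the threshold. All 54 members stayed higher after culture in both subsets under every alternative run. Fitting all 30 libraries together gave 6 calls between the fresh subsets (23 with the fresh libraries alone), 5 for the difference of culture effects (8) and 4 for lactate in MHC-IIlo TAMs (0). With the replicate block, where the cultured numbers share only a number, calls were 11 between no-lactate subsets (7 without the block), where 23.5% of all genes were called, and 11 for lactate in MHC-IIlo TAMs (7.86% of all genes). Same-numbered cultured libraries had correlations of -0.448 to 0.590, and not each correlated best with its own number. With lactate MHC-IIlo 5 also out of the fit, an alternative chosen after seeing the data, they were 14 (27.2% of all genes) and 2 (4.48%). Without the block, leaving that library out gave 11 calls between lactate subsets (18), as did using no filter on low counts. For lactate in MHC-IIlo TAMs, DESeq2 gave 2 calls and each of the 3 FPKM fits (pseudocount 1, pseudocount 0.1, and pseudocount 1 with no filter) gave 1. The block left 0 calls for lactate in MHC-IIhi TAMs, with 21 members at an unadjusted p under 0.05 (16.2% of all genes) and a median of -0.38, or 28 (19.3%) and -0.37 with that library also out. It left the difference of lactate effects below 0 for 34 members (51% of all genes) with a median of -0.05, and with that library also out the direction turned, with 20 below 0 (48.6%) and a median of 0.08. A block on the heading numbers that fresh and no-lactate columns share in part, also chosen after seeing the data, left 54 calls for culture in each subset and gave 16 for the difference of culture effects (14% of all genes), without Ifitm3 (adjusted p = 0.066). No-lactate MHC-IIhi 7 shares its number with no other library, so each of these block fits in effect takes it out of the comparison. Leaving out no-lactate MHC-IIhi 7 with no block gave 9 calls between no-lactate subsets and 18 for the difference of culture effects. With 1 library left out at a time, calls ran from 19 to 23 between fresh subsets, 3 to 9 between no-lactate subsets, 9 to 20 between lactate subsets and 6 to 18 for the difference of culture effects, and were 0 for lactate in either subset and 54 for culture. The cause of these shifts was not tested. Tgtp1 and Ifnb1 had few fresh reads, which limits their folds.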

Other observations

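Outside the members, fresh subsets differed in other interferon-induced genes. Of 87 tested genes of the further list, 14 were higher and 23 lower in fresh MHC-IIlo than in fresh MHC-IIhi TAMs (edgeR quasi-likelihood test), where 14% of all genes were higher and 15.2% lower. The higher ones included Ddx60, a helicase (1.19 ± 0.17, adjusted p = 0.000177), Ms4a6b (1.12 ± 0.15, 0.000123) and Ifi204, a DNA sensor (0.65 ± 0.09, 0.00016). The lower ones included Ifitm1, a relative of Ifitm3 that acts at the cell surface (-2.74 ± 0.18, 7.21e-07), Ly6a (-1.24 ± 0.12, 7.76e-06) and the immunoproteasome subunit Psmb8 (-0.64 ± 0.08, 5.61e-05). Ifitm1 was also lower in MHC-IIlo TAMs without lactate (-3.54) and with it (-4.39, or -4.21 without lactate MHC-IIlo 5).

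The culture effect differed between the subsets for 17 of 92 further genes, 4 larger and 13 smaller in MHC-IIlo TAMs, a count near that of all genes, of which 14.2% differed, 5.98% larger and 8.2% smaller. It was larger for the thiol reductase Ifi30 (0.84 ± 0.21, 0.00826), Slfn1 (0.68 ± 0.17, 0.0103) and Ly6a (1.16 ± 0.30, 0.0111) and smaller for Herc3 (-1.27 ± 0.17, 3.39e-05), the inflammatory caspase Casp4 (-0.71 ± 0.15, 0.00287) and Ms4a6b (-1.28 ± 0.30, 0.00662), each as an adjusted p from edgeR.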
